A study of Mus musculus with 23 samples.

Results

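The LPS response of the cortex after doxycycline (dox) and washout was described in 10 of the 23 mice of the series, 6 labelled Dox+LPS and 4 labelled Dox, taken by these treatment labels. All 10 were wild-type (WT) siblings from the cross that carries the CaMKIIα-tTA and tetO-APP transgenes, on a B6FVB F1 background, and so had neither transgene. Dox was given in chow (100 mg/kg) to both groups, starting at postnatal day 3 and ending at 6 wk, and after a further 6 wk of washout the mice were harvested at 12 wk. Dox+LPS mice (3 males and 3 females) had a single intraperitoneal injection of 2 mg/kg bacterial lipopolysaccharide (LPS) 18 h earlier. By the study's methods the Dox mice (1 male and 3 females) were injected with saline, and the gut microbiome had been sampled only in the mice given LPS. The study asked whether early dox leaves the brain with an altered response to an immune challenge. The other 13 mice, 8 Untreated and 5 LPS mice never given dox, enter the same model fit and are compared only at the end.

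Systemic LPS is the standard mimic of a gram-negative infection. LPS is carried by Cd14 to the receptor Tlr4, and through the adaptor Myd88 and the kinases of the Irak family it releases the transcription factor NF-kB, while a second branch raises type 1 interferons and their target genes. Little LPS enters the brain itself. Endothelial cells, perivascular macrophages and microglia relay the signal from blood, astrocytes answer with a reactive state of acute-phase and matrix genes, and animals show sickness behavior.

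Messenger RNA of 757 endogenous and 13 housekeeping genes was tallied on the nCounter Mouse Neuroinflammation panel. A color-coded probe pair is bound to each RNA molecule and counted without amplification. A normalized count is the count of a gene divided by the upper-quartile scaling factor of its mouse. Counts were compared only within a gene, because probes differ in efficiency. Totals over the 770 genes were 671189 to 740232 in Dox and 661681 to 804471 in Dox+LPS mice. Background in each mouse was the mean plus 2 SD of 8 negative control probes, and 609 to 642 genes lay above it in Dox mice and 644 to 694 in Dox+LPS mice. The 6 Dox+LPS mice were hybridized on one cartridge and the 4 Dox mice on another, and therefore the effects of LPS and of the cartridge cannot be told apart. The cortex was read as bulk tissue, in which fewer cells of a type and less RNA per cell cannot be told apart. Of the 5 resident cell types checked, the markers of neurons (4 of 4 measured), astrocytes (3 of 3), oligodendrocytes (4 of 4), microglia (4 of 4) and endothelium (3 of 3) were above background in all 10 mice. One library stood apart. Over the 577 genes above background in all 10 mice, Dox+LPS replicate 1, a male, had a median absolute log2 difference of 0.189 from its group mates, against 0.107 to 0.125 for the other 5 Dox+LPS mice and 0.102 to 0.112 for the 4 Dox mice. Fold changes and SE below include it unless stated. For several genes its value is given apart, and the count of all called genes is also given without it.

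LPS upregulated 150 genes and downregulated 54 of 770 in mice with prior dox, counting a gene as changed when its Benjamini-Hochberg adjusted p from the quasi-likelihood test of edgeR was under 0.05 and its absolute log2 fold change above 0.5. This is 26.5% of the genes tested, 19.5% up and 7.01% down. Upregulated genes also moved further, with 97 beyond 1 on the log2 scale and 40 beyond 2, against 14 and 2 of the downregulated genes. These counts rest on fitted values. They include upregulated genes with every Dox mouse under background, whose fold is known only as a bound. The values of the 2 groups did not overlap for 40.1% of genes, 18.6% with Dox+LPS higher and 21.6% with Dox+LPS lower. Without Dox+LPS replicate 1 the fit called 155 up and 51 down, 196 of the 204 genes among them. Without it 46.8% of genes did not overlap, a share that leaving out any mouse can only keep or raise. In 41 of the 150 upregulated genes every Dox mouse was under background. For such genes a fold is printed as "at least", the mean of Dox+LPS over the mean background of the Dox mice, and the fitted log2 value of the single gene is not used. Where it changes the median of a gene list, the median with such genes at the log2 of their bound is given as well. Of the called genes, 5 (Clec7a, Trem1, Exo1, Ppp3r2 and Tnfrsf13c) were under background in all 10 mice and are not read further. All but Exo1 also lost the call when 1 of several mice was left out (Clec7a, for one, had 0.59 without Dox replicate 2, Trem1 0.72 without Dox replicate 4, Tnfrsf13c -0.58 without Dox+LPS replicate 4 and Ppp3r2 -0.52 without Dox+LPS replicate 2). The median log2 fold change over all genes was -0.07. Scaling by the housekeeping genes in place of the upper quartile moved this median to 0.10 and turned the split into 180 up and 26 down, so the smaller decreases below rest on the scaling, and the counts under it are given beside them.

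**Figure D1:**
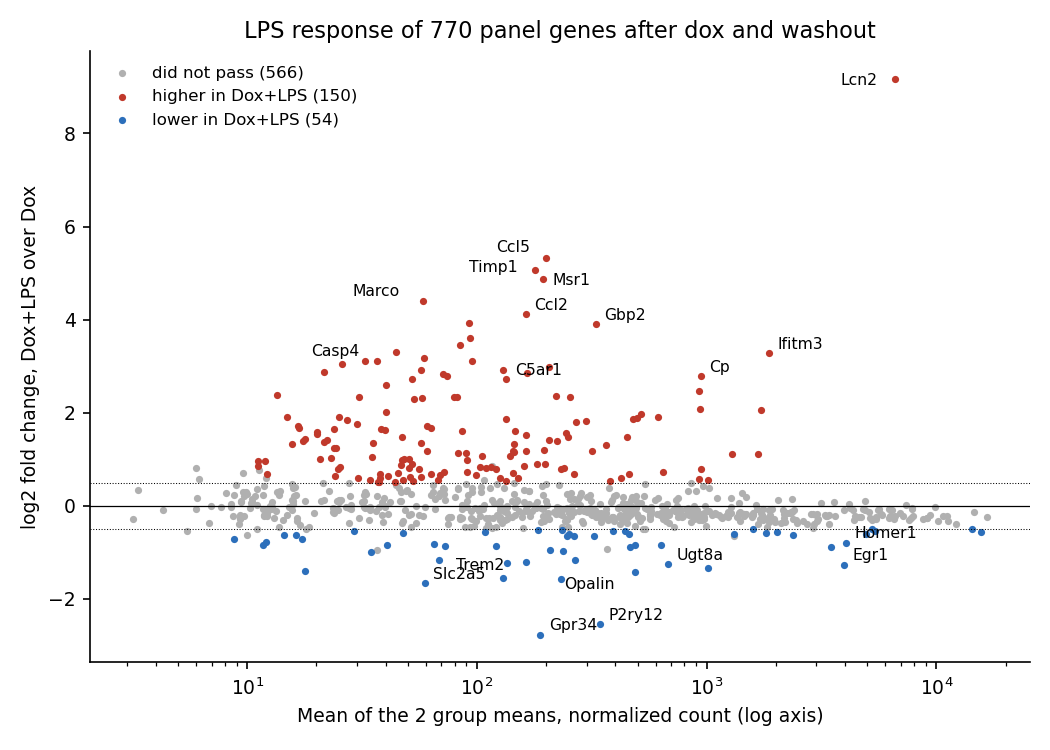
Each point is a panel gene, placed by the mean of its Dox and Dox+LPS group means (normalized count, log axis) and by its log2 fold change. The 150 upregulated genes (red) reach 9.18 for Lcn2, with genes unseen above background in Dox mice drawn at their fitted values, while the 54 downregulated genes (blue) lie below the dotted line at -0.5 and reach -2.77 for Gpr34.

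The most induced transcript was Lcn2, lipocalin 2, an acute-phase protein that starves bacteria of iron and is made by reactive astrocytes and by neutrophils. Its normalized counts were 30.5, 19.2, 11.3 and 29.8 in the 4 Dox mice and ran from 9968 through a median of 13091 to 17611 in the 6 Dox+LPS mice, with a log2 fold change of 9.18 ± 1.04 (SE). Background was exceeded in 2 of the 4 Dox mice and in all 6 Dox+LPS mice. Timp1, an inhibitor of matrix metalloproteinases, was under background in every Dox mouse, with counts of 14.7, 8.53, 4.12 and 13.9, and ran from 277 through 356 to 411 after LPS, at least 15.8-fold higher. Steap4, a metalloreductase, was likewise unseen above background in Dox mice and at least 7.84-fold higher, and Cp, the ferroxidase ceruloplasmin, went from 273, 207, 201 and 274 to between 1402 and 2019. Igsf6, a surface protein of the immunoglobulin superfamily, was at least 7.02-fold higher. Hmox1, heme oxygenase, which frees iron from heme, rose by 0.67 on the log2 scale.

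**Figure D2:**
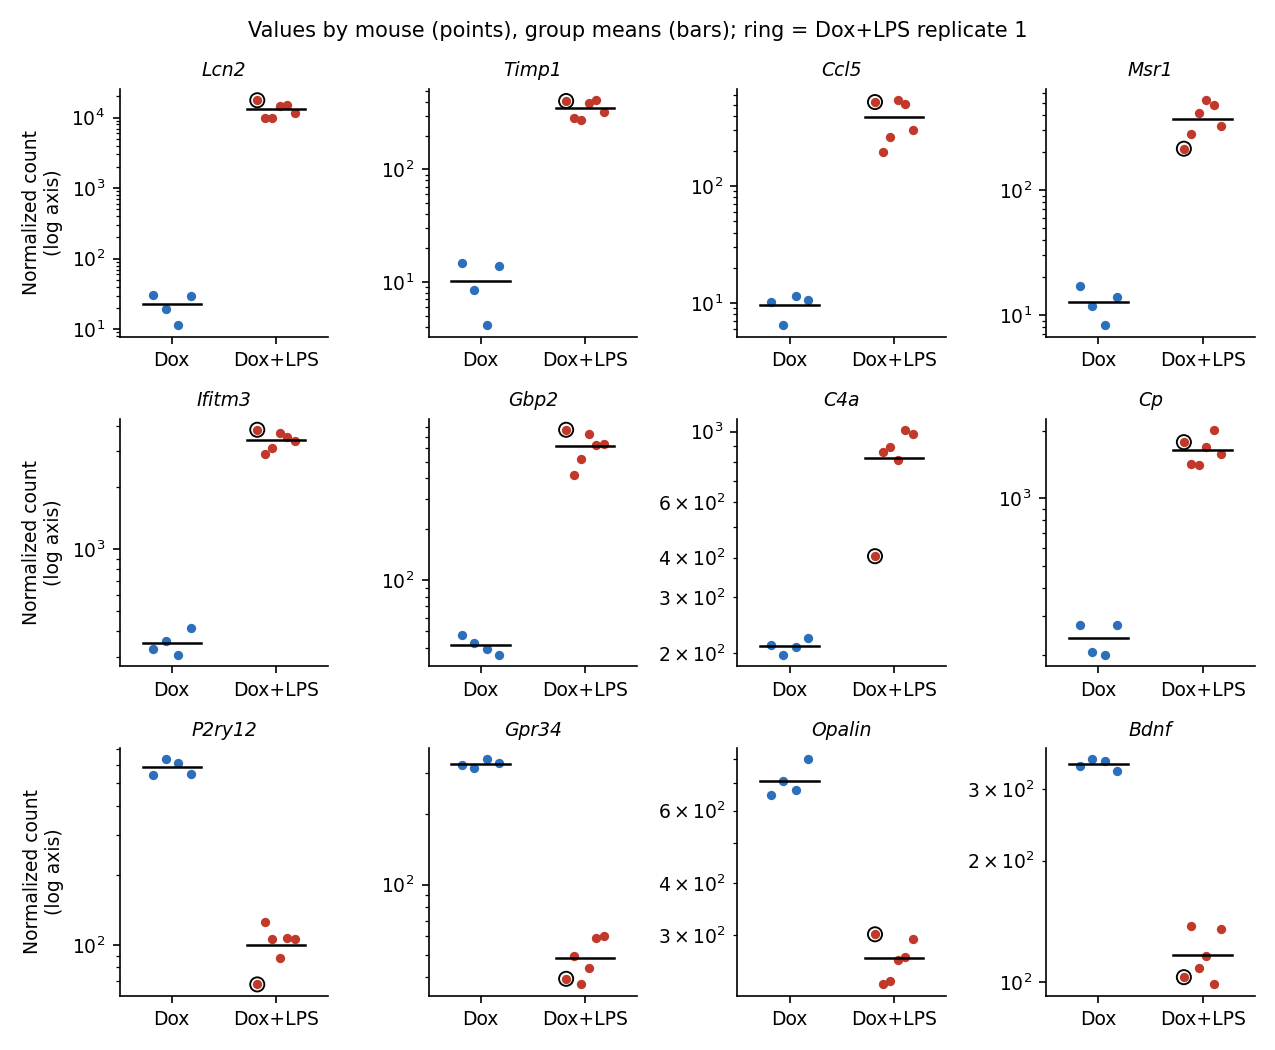
Normalized counts (log axis) of 12 genes in each of the 4 Dox mice (blue) and 6 Dox+LPS mice (red), with the group mean as a bar and Dox+LPS replicate 1 ringed. Groups do not overlap for any of the 12 genes, and replicate 1 is the highest for Lcn2 (17611) but far under the other 5 mice for C4a (404).

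Genes of LPS sensing and its signal chain rose. Of 12 measured LPS-sensing and Toll-like receptor genes, 8 were upregulated and 0 downregulated, with a median log2 fold change of 0.71. Trem1 is among the 8. Cd14 was 23.7, 25.6, 20.6 and 38.4 in Dox mice and ran from 99.9 through 138 to 181 in Dox+LPS mice, for a log2 fold change of 2.33 ± 0.26 (SE, adjusted p = 6.04e-08), with no overlap. Tlr4 itself rose less, from 35.0, 32.0, 28.8 and 26.6 to a range of 32.8 to 48.8 with overlapping groups, a log2 fold change of 0.52 ± 0.16 (SE, adjusted p = 0.00781), and was not called without Dox+LPS replicate 3 (0.49) or 5 (0.48) or Dox replicate 3 (0.49) or 4 (0.45). Tlr2, the receptor of bacterial lipopeptides, was at least 4.12-fold higher. Myd88 rose by 1.08 on the log2 scale and Tlr7, a receptor of single-stranded RNA, by 0.89. Irak4, the first kinase of the chain, rose by 0.56 (0.47 and not called without Dox replicate 4), and Irak3, a pseudokinase that restrains it, by 1.17.

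The NF-kB genes that rose were inhibitors, kinases and a noncanonical subunit. Of 17 measured, 5 were upregulated and 0 downregulated (median 0.29). Nfkb2, the precursor of the noncanonical subunit p52, was 24.9, 27.7, 35.0 and 33.0 in Dox mice and ran from 78.5 through 96.1 to 123 after LPS, a log2 fold change of 1.67 ± 0.15 (SE, adjusted p = 4.12e-09). Nfkbia, which holds NF-kB in the cytoplasm and is itself an NF-kB target, rose by 1.07, and its relative Nfkbie by 0.56 (not called without Dox+LPS replicate 4, 0.50, or Dox replicate 4, 0.48). Rela, the canonical activating subunit, had a log2 fold change of 0.32 and did not pass the fold threshold (adjusted p = 0.0126). Ikbke, a kinase shared with the interferon branch, was at least 1.65-fold higher, while Ripk1, a kinase of TNF receptor complexes, rose by 0.53 and was not called without Dox+LPS replicate 1 (0.47) or 2 (0.49) or Dox replicate 2 (0.45). Birc3, an inhibitor of apoptosis and NF-kB target, rose by 1.34.

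The interleukin 1 axis changed on the side of its brakes as well as its agonists. Of 7 genes, 5 passed, all upward (median 1.62, or 1.07 with bounds). Il1b was at least 1.93-fold higher, and Il1a went from 14.7, 16.0, 26.8 and 20.3 to between 40.3 and 75.8. The decoy receptor Il1r2 was at least 3.12-fold higher. The receptor antagonist Il1rn was at least 2.10-fold higher, with counts of 118, 24.8, 24.3, 44.7, 45.7 and 19.3 in Dox+LPS replicates 1 to 6, so replicate 1 alone was far above the rest. The other males (replicates 4 and 5) also lay above every female. The signalling receptor Il1r1 showed replicate 1 on top, at 342 against 158 to 194 in the other 5 mice and 79.3 to 94.9 in Dox mice. The accessory chain Il1rap had a log2 fold change of -0.24 (adjusted p = 0.00232), short of the fold threshold. Casp4, the mouse caspase 11 that binds LPS inside cells, was at least 3.01-fold higher and Nlrp3, the inflammasome sensor, rose by 1.02. These were the 2 of 10 caspase and inflammasome genes that passed, near the 19.5% of all genes that rose.

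Of 26 TNF superfamily ligands and receptors, 8 rose and 3 fell (median 0.17). Tnf was at least 1.36-fold higher, with overlap because Dox+LPS replicate 5, at 11.4, lay within the Dox range. The receptor Tnfrsf1a, the main signalling receptor of TNF, was 125, 114, 134 and 118 in Dox mice and ran from 290.1 through 359.8 to 481 (log2 fold change 1.57 ± 0.15, SE). Tnfrsf1b rose by 0.72, Ltbr, the lymphotoxin receptor, by 0.67 and Fas, the death receptor, by 0.99. Tnfrsf25 fell by 0.99 on the log2 scale with overlapping groups, and was not called without Dox+LPS replicate 1, 4 or 5 or Dox replicate 2 or 3, at -0.79 without Dox replicate 2. Tnfrsf17, a receptor of plasma cells, lay under background in all but 1 mouse and was not called in 7 of the 10 fits that left out 1 of these mice, at -0.59 without Dox replicate 1. All 3 decreases were lost with housekeeping scaling, and 6 increases and 1 decrease were called without Dox+LPS replicate 1.

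Of 17 cytokine receptor and JAK-STAT genes, 7 rose and 1 fell (median 0.38). Osmr, the receptor of oncostatin M, was 80.2, 64.0, 71.0 and 73.6 in Dox mice and ran from 271 through 322 to 563 in Dox+LPS mice, with a log2 fold change of 2.35 ± 0.22 (SE, adjusted p = 4.37e-09). Il2rg, the common gamma chain, rose by 1.72, the interleukin 6 receptor Il6ra by 0.84, and Csf2rb, the shared receptor chain of GM-CSF, was at least 2.12-fold higher. Socs3, the inhibitor that ends STAT3 signalling, rose by 1.36. Csf1, the growth factor of microglia, rose by 0.69 ± 0.08 (SE) with no overlap. The exception was Tgfbr1, a receptor of the TGF-beta signal that keeps microglia in their resting state, which went from 634, 615, 540.4 and 612 to between 279 and 349 (log2 fold change -0.89 ± 0.06, SE, adjusted p = 3.67e-11).

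Of 8 chemokines, 6 rose and 1 fell, with a median log2 fold change of 2.61, the highest of the 41 lists, or 1.77 with bounds, where the pan-reactive (2.47) and A1 (1.83) astrocyte lists were higher. Ccl2, which draws monocytes, was 21.5, 22.4, 11.3 and 16.0 in Dox mice and ran from 169 through 284 to 512 after LPS (log2 fold change 4.11 ± 0.34, SE, adjusted p = 8.03e-10). Only 1 of the 4 Dox mice was above background for it. Ccl5, which draws T cells and monocytes, was at least 17.7-fold higher, Cxcl10 at least 7.87-fold, Cxcl9 at least 2.32-fold and Ccl7 at least 1.73-fold. Cxcl9 and Cxcl10 are induced by interferon and share the receptor Cxcr3. For Ccl5 the 6 Dox+LPS mice spread over 526, 195, 263, 545, 507 and 303 in replicates 1 to 6. The males (replicates 1, 4 and 5) lay at 507 to 545 and the females at 195 to 303. Cx3cl1, a neuronal chemokine that calms microglia, fell, from 1633, 1798, 1649.9 and 1266 to between 904 and 1209.6 (log2 fold change -0.60 ± 0.09, SE). It was not called with housekeeping scaling. Ccl4 did not pass (log2 fold change 0.76, adjusted p = 0.0697), though it was called without Dox+LPS replicate 5 (0.87) or 6 (0.96), and was under background in all 10 mice.

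Interferon-stimulated genes rose as a group, 11 of 12 (median 1.44), all 11 without overlap. Beside them, 7 of 9 genes on the list of foreign nucleic acid sensing rose (median 0.89, or 0.72 with bounds). That list also holds the signalling genes Ikbke, which rose, and Mavs and Irf3, which did not pass. Ifitm3, a membrane protein that blocks viral entry, was 325, 357, 306 and 413 in Dox mice and ran from 2915 through 3439.6 to 3819 in Dox+LPS mice, for a log2 fold change of 3.28 ± 0.25 (SE, adjusted p = 1.74e-10). Its neighbor and relative Ifitm2 rose by 1.92 ± 0.14 (SE). Gbp2, a GTPase that coats intracellular bacteria, rose from 47.5, 42.7, 39.1 and 36.2 to between 415 and 771 (3.90 ± 0.42, SE). Rsad2, which encodes the antiviral enzyme viperin, reached 275 in Dox+LPS replicate 1 and 74.7 to 115 in the other 5 mice, against 29.8 to 61.8 in Dox mice. Of the regulators, Irf7, the master factor of the interferon response, rose by 2.92 ± 0.27 (SE), Irf1 by 1.40 ± 0.17 and Irf8, which is also a factor of microglial activation, by 0.62 ± 0.15. Among sensors, Zbp1, which detects Z-form nucleic acid, went from 21.5, 12.8, 26.8 and 17.1 to between 139 and 207 (3.12 ± 0.26, SE). The RNA helicase Ddx58, known as RIG-I, rose by 1.18, Ifih1, known as MDA5, by 0.60, and the DNA sensor Mb21d1, known as cGAS, by 1.00. Tmem173, known as STING, rose by 0.64 with overlapping groups and was not called without Dox+LPS replicate 3 (0.51) or Dox replicate 1 (0.59).

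The interferon-stimulated response element, through which interferon-activated factors act, was searched in these promoters, because it is the sequence that such genes are known to share. The window was 250 bases before to 50 after the gene start (RefSeq, GRCm38.p6), available for 601 of the 770 panel genes, and the element was spelled as GAAA, then any 2 bases, then GAAA, on either strand. It occurred in 23 of 116 upregulated genes (19.8%), in 4 of 44 downregulated genes (9.09%), in 18 of 441 genes not called (4.08%) and in 3.99% of 27025 genes genome-wide. Of the 10 interferon genes with a promoter, 6 held it. Below are those of Ifitm3, Ifitm2, Gbp2 and Rsad2, with the interferon-induced Cxcl10 and Ddx58, each 5′ to 3′ in the direction of the gene, with the element in capitals, which reads TTTC, any 2 bases, TTTC where it lies on the other strand.
Ifitm3: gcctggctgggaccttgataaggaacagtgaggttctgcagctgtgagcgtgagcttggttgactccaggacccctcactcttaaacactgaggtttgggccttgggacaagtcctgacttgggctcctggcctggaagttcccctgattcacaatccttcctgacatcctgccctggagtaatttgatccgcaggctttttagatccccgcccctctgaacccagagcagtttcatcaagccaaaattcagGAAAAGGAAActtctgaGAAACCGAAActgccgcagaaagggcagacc
Ifitm2: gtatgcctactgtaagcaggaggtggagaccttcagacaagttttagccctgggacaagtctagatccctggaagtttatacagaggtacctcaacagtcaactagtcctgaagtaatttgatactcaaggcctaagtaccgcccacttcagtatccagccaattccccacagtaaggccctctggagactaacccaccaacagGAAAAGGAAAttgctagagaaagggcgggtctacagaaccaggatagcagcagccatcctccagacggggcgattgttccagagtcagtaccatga
Gbp2: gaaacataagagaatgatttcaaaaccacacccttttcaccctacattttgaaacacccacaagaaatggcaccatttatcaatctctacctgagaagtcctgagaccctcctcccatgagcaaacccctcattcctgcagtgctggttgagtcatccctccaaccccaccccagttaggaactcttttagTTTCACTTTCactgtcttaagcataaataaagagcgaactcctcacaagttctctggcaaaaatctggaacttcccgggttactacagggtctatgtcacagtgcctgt
Rsad2: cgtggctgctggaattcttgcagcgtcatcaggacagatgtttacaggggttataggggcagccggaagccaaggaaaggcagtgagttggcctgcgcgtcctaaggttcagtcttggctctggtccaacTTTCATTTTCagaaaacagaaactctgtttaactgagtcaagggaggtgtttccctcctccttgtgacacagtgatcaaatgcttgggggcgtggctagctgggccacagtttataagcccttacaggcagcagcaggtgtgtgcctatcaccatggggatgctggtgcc
Cxcl10: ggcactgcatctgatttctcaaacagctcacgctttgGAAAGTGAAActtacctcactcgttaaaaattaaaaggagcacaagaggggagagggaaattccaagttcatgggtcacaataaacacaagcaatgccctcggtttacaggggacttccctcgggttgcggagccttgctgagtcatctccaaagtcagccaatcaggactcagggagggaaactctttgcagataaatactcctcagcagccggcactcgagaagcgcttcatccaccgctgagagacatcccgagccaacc
Ddx58: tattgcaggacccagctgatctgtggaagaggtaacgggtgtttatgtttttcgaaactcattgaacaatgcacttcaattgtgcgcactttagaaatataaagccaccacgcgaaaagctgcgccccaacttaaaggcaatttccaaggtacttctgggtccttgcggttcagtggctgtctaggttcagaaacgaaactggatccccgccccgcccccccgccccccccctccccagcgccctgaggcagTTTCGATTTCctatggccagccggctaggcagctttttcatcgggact
Ifitm3 and Ifitm2, neighbors on chromosome 7, share the stretch GAAAAGGAAA, and Ifitm3 holds a second copy GAAACCGAAA close by. The windows were chr7:141010695-141010994 (minus strand, Ifitm3), chr7:140955912-140956211 (minus strand, Ifitm2), chr3:142620413-142620712 (plus strand, Gbp2), chr12:26456403-26456702 (minus strand, Rsad2), chr5:92348840-92349139 (minus strand, Cxcl10), chr4:40239776-40240075 (minus strand, Ddx58). A match is only a description of letters in the window. The motif for NF-kB was met in 24 of the upregulated promoters (20.7%), 10 of the downregulated (22.7%), and 14.1% of those not called. The STAT motif TTCNNNGAA was met in 19.8%, 9.09% and 8.39%, and the cyclic AMP element TGACGTCA in 1.72%, 0% and 4.54%. The serum response element was met in 0 upregulated and 1 downregulated promoter, and a looser form of the NF-kB motif in 25.9%, 18.2% and 15.6%. Genome-wide these 5 were met in 9.55% (NF-kB), 9.55% (TTCNNNGAA), 2.03% (TGACGTCA), 1.81% (serum response element) and 11.1% (the looser NF-kB form, which overlaps the first) of windows. No other motif was searched.

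Complement and its receptors were upregulated from both the classical and the C3 arm. Of 7 components, 6 passed, all upward (median 1.12). The subunits of C1q, made by microglia, had log2 fold changes of 1.11 ± 0.15 (SE) for C1qa, 1.12 ± 0.13 for C1qb and 0.78 ± 0.14 for C1qc. C1qa was 843, 827, 777 and 830.4 in Dox mice, 978 in Dox+LPS replicate 1 and 1732 to 2079 in the other 5. C4a, whose probe may also read its near-identical neighbor C4b, was 212, 197, 209 and 224 in Dox mice, 404 in replicate 1 and 814 to 1013 in the others, a log2 fold change of 1.98 ± 0.20 (SE). C3, the central component, was 74.6, 52.3, 9.26 and 50.1 in Dox mice and ran from 189 through 349 to 593. Serping1, the C1 inhibitor, rose by 1.83 ± 0.18 (SE). Thus the inhibitor rose together with the C1q subunits. The receptor C5ar1 had the smallest adjusted p of the upregulated genes and went from 44.1, 26.7, 34.0 and 36.2 to between 207 and 262 (2.72 ± 0.16, SE, adjusted p = 3.20e-12), and C3ar1 rose by 1.86 ± 0.18 (SE). Itgam, the alpha chain of complement receptor 3, was 88.3 in Dox+LPS replicate 1, under all 4 Dox mice at 114, 126, 105 and 135, and 165 to 230 in the other 5. Its log2 fold change of 0.59 was not called without Dox+LPS replicate 4 (0.51) or Dox replicate 1 (0.56) or 3 (0.53).

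Among phagocytic and myeloid receptors, activating and inhibitory members rose, while Trem2 fell. Of 26 Fc receptors, other myeloid receptors and their signalling proteins, 14 rose, Clec7a and Trem1 among them, and 1, Trem2, fell (median 0.64, or 0.39 with bounds). The high-affinity IgG receptor Fcgr1 went from 78.0, 113, 85.4 and 62.9 to between 158 and 294 (1.52 ± 0.19, SE), and its signalling chain Fcer1g rose by 1.41 ± 0.14 (SE). The inhibitory receptors rose too, Fcgr2b by 0.90 and Lilrb4a by 2.80 on the log2 scale, and Pilra was at least 4.56-fold higher. The phosphatase Ptpn6, known as SHP-1, which acts below such receptors, rose by 1.13. Tyrobp, the adaptor of Trem2, rose by 0.60 ± 0.12 (SE), while Trem2, a lipid receptor of microglia, fell from 236, 257, 216 and 207 to between 73.6 and 130.4 (-1.21 ± 0.15, SE, adjusted p = 2.37e-07). The receptor and its adaptor therefore moved in opposite directions.

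Of 10 scavenger receptors and perivascular macrophage genes, 9 rose (median 1.32, or 0.70 with bounds). Msr1, the class A scavenger receptor, was at least 16.9-fold higher and ran from 214 to 523 after LPS against 16.9, 11.7, 8.23 and 13.9 in Dox mice. Its relative Marco, a receptor for bacteria, was at least 5.05-fold higher. Ms4a4a rose by 2.33 ± 0.25 (SE), and Cd163, the hemoglobin receptor, by 0.79, with Dox+LPS replicate 1 at 13.5 inside the Dox range and no call without Dox replicate 4 (0.53). The hydroxybutyrate receptor Hcar2 was at least 3.65-fold higher, with the 6 Dox+LPS mice between 65.5 and 92.5 and Dox mice at 7.91, 6.40, 6.18 and 11.7. Gpr84, a receptor of medium-chain fatty acids, was at least 5.68-fold higher. Of 7 antigen presentation genes, 5 rose and 1 fell (median 0.62). Psmb8, a subunit of the immunoproteasome, rose by 2.33 ± 0.27 (SE), the class I molecule H2-T23 by 1.13, the lysosomal reductase Ifi30 by 1.32, while the class I-like Mr1 fell by 0.56 and was not called with housekeeping scaling.

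The 3 largest decreases of the panel, Gpr34, P2ry12 and Slc2a5, were markers of resting microglia. Of 18 homeostatic genes, 8 fell, 10 did not pass and 0 rose (median -0.38), and 7 fell with housekeeping scaling. Gpr34, a receptor of lysophosphatidylserine, was 327, 316, 345 and 332 in Dox mice and ran from 37.4 through 46.7 to 60.5 in Dox+LPS mice, for a log2 fold change of -2.77 ± 0.16 (SE, adjusted p = 1.70e-12). P2ry12, the ADP receptor that steers microglial processes, was 545, 634, 612 and 548 and then ran from 67.5 through 106 to 125 (-2.54 ± 0.13, SE, adjusted p = 3.86e-13). These were the 2 called genes below -2, and the groups lay far apart for both. Slc2a5, a fructose transporter, fell by 1.65 on the log2 scale, Fcrls by 1.23 and the secreted Olfml3 by 0.94. Sall1, the transcription factor of microglial identity, fell by 0.53 and was not called with housekeeping scaling or without Dox+LPS replicate 1 (-0.43) or Dox replicate 1 (-0.48). Mef2c and Bin1, which neurons also express, had log2 fold changes of -0.39 and -0.35 that did not pass the fold threshold. The 4 markers of microglia (P2ry12, Tmem119, Cx3cr1 and Csf1r) summed to 2800 to 2946 normalized counts in Dox and 1311 to 2476 in Dox+LPS mice, and of them only P2ry12 passed. Genes of the disease-associated microglia program gave 5 increases, Clec7a among them, and 2 decreases of 13 (median 0.44). Spp1, osteopontin, rose from 273, 136, 164 and 251 to between 629 and 985 (1.86 ± 0.23, SE), and Ch25h, the cholesterol 25-hydroxylase, was at least 2.66-fold higher. Apoe had a log2 fold change of -0.22 (adjusted p = 0.00096) and did not pass. Igf1 fell by 0.54, with overlapping groups, and was not called with housekeeping scaling or without Dox+LPS replicate 4 (-0.41) or Dox replicate 1 (-0.44).

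**Figure D3:**
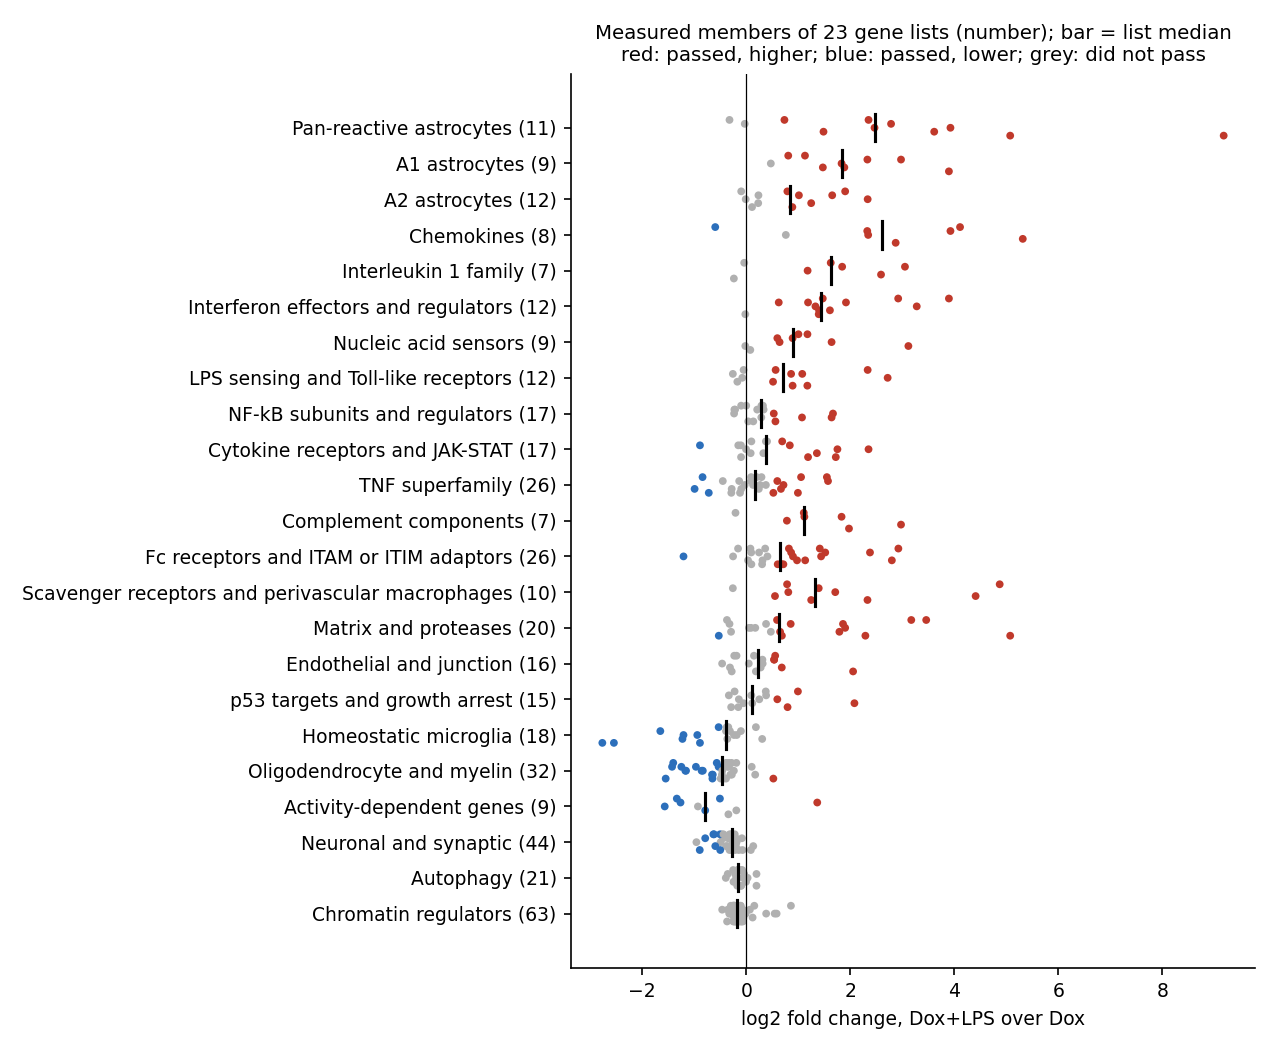
Log2 fold change of each measured member of 23 gene lists, with the number measured in brackets and the list median as a bar, with genes at their fitted values, in red where the gene passed upward, blue where it passed downward and grey where it did not pass. Medians run from 2.61 (chemokines) to -0.79 (activity-dependent genes), beside -0.07 over all 770 genes.

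Most reactive astrocyte genes rose. Of 11 pan-reactive genes 9 rose (median 2.47), of 9 genes of the A1 list 8 (median 1.83) and of 12 genes of the A2 list 7 (median 0.84, or 0.43 with bounds), though many members are also interferon, complement or LPS-sensing genes. Serpina3n, a serine protease inhibitor of reactive astrocytes, was 273, 269, 287 and 305 in Dox mice and ran from 1188 through 1575 to 1904 (2.47 ± 0.20, SE, adjusted p = 7.22e-10). Hspb1, a small heat shock protein, rose by 1.49 ± 0.21 (SE) and the intermediate filament Vim by 0.73 ± 0.15 (SE). Fkbp5, which is also a target of the glucocorticoid receptor, rose from 253, 259, 247 and 196 to between 479 and 1023 (1.47 ± 0.19, SE). Srgn, a proteoglycan of secretory granules, rose by 1.89 ± 0.14 (SE) and Ptx3, a soluble pattern receptor, by 1.65 ± 0.37 (SE). Cd44 had a log2 fold change of -0.32 and did not pass (adjusted p = 0.231). Of 12 identity genes, 1 rose and 2 fell (median -0.04), near the share of all genes tested, and with housekeeping scaling 2 rose and 0 fell. Agt, angiotensinogen, rose from 191, 119, 278 and 252 to between 336 and 631 (1.30 ± 0.22, SE). Kcnj10, the potassium channel Kir4.1, and Grm3, a glutamate receptor, had log2 fold changes of -0.55 ± 0.06 and -0.62 ± 0.08 (SE), and neither passed with housekeeping scaling. Aldh1l1 had a log2 fold change of 0.49, just short of the fold threshold (adjusted p = 5.90e-08), and was called without Dox+LPS replicate 1 (0.51) or 2 (0.50).

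Oligodendrocyte and myelin genes fell together. Of 32, 14 fell and 1 rose (median -0.46), 26 of 32 did not overlap between groups, and 9 fell with housekeeping scaling. Pllp, plasmolipin of the myelin membrane, was 184, 186, 197 and 211 in Dox mice and ran from 44.7 through 67.3 to 83.3 in Dox+LPS mice (-1.55 ± 0.16, SE, adjusted p = 1.21e-08). Opalin, a marker of mature oligodendrocytes, went from 655, 708, 673 and 798 to between 228 and 301 (-1.43 ± 0.12, SE). Ugt8a, the enzyme that makes galactosylceramide, fell by 1.25 on the log2 scale, and Fa2h, which hydroxylates its fatty acids, by 0.66. Padi2, a citrullinating enzyme, fell by 1.17, Enpp6, a marker of newly formed oligodendrocytes, by 1.16, the gap junction protein Gjb1 by 0.97 and the myelin surface protein Mog by 0.84. Cnp, an enzyme of myelin, had a smaller log2 fold change of -0.53 ± 0.07 (SE). Ngfr, the neurotrophin receptor on this list, was the 1 increase, 0.52 with overlapping groups and an adjusted p of 0.0499, and it was not called in 7 of the 10 fits that left out 1 of these mice, at 0.36 without Dox replicate 1.

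Genes that follow neuronal activity also fell. Of 9, 5 fell and 1 rose (median -0.79), with 4 decreases under housekeeping scaling. Bdnf, a neurotrophin, was 342, 356, 352 and 334 in Dox mice and ran from 98.7 through 112 to 137 (-1.57 ± 0.16, SE, adjusted p = 1.05e-08). Homer1, a postsynaptic scaffold with an activity-induced short form, went from 5361, 5779.6, 4730.5 and 4707 to between 2832 and 3159 (-0.79 ± 0.08, SE). The immediate early genes were more scattered. Arc was 946, 1939, 1504 and 1404 in Dox mice and 910.2, 390.3, 369, 262, 713 and 804 in Dox+LPS replicates 1 to 6 (-1.33 ± 0.40, SE), and Egr1 had a log2 fold change of -1.26 ± 0.29 (SE). Fos had counts of 217, 577, 461 and 681 and then ran from 83.5 through 273 to 399, with overlapping groups, and did not pass (-0.93 ± 0.47, SE, adjusted p = 0.0959), though it was called without Dox replicate 1 (-1.17). Atf3, a stress-induced factor on the same list, was at least 1.42-fold higher. Of 44 neuronal and synaptic genes, 7 fell and 0 rose (median -0.28). Lingo1, a membrane protein that limits myelination, had a log2 fold change of -0.89 ± 0.08 (SE), Tubb3, neuronal tubulin, of -0.59 ± 0.06, and Pacsin1, an endocytic protein of synapses, of -0.50 ± 0.06, at the threshold and not called without Dox+LPS replicate 4 or 5 or Dox replicate 1 or 2 (-0.46 to -0.50). Only 2 of these 7 decreases were called with housekeeping scaling.

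In the endothelial and junction list 5 of 16 rose (median 0.23). Ly6a, an interferon-responsive surface protein of brain endothelium, was 678, 703, 614 and 674 in Dox mice and ran from 2176 through 2829 to 3108 (2.05 ± 0.19, SE). The other 4 overlapped through a single mouse. Cldn5, the main claudin of the blood-brain barrier, was 796 in Dox+LPS replicate 1, 1177 to 1380 in the other 5 and 762 to 902 in Dox mice. Pecam1, the adhesion molecule CD31, was 313, 429 to 509 and 297 to 331 in the same order, with no call without Dox+LPS replicate 3 (0.50), and Lsr, a protein of tricellular junctions, 217, 300 to 411 and 166 to 225. Jam2, a junctional adhesion molecule, had a log2 fold change of -0.46 (adjusted p = 1.08e-06), short of the fold threshold, and was called without Dox+LPS replicate 6 (-0.51). Of 20 matrix and protease genes 11 rose and 1 fell (median 0.62, or 0.53 with bounds), with 13 and 0 under housekeeping scaling. Tgm2, a transglutaminase, rose by 1.79 ± 0.14 (SE), Lrg1, a glycoprotein of inflamed vessels, by 2.29 ± 0.29 (SE), and Mmp14, a membrane metalloproteinase, by 0.85 ± 0.14 (SE). Mmp12, the macrophage elastase, was at least 4.80-fold higher, but its 6 Dox+LPS values lay in 3 mice at 138 to 187, all males, and in 3 at 35.5 to 46.9, all females.

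Among stress and growth-arrest genes, Cdkn1a, which encodes the cell-cycle inhibitor p21, was 424, 388, 262 and 358 in Dox mice and ran from 918 through 1358 to 2754 (2.08 ± 0.25, SE, adjusted p = 2.72e-07). Myc rose by 0.79 ± 0.10 (SE), and Bcl2a1a, an antiapoptotic gene with near-identical copies that the probe may also read, by 2.85 ± 0.27 (SE). Ncf1, a subunit of the phagocyte oxidase, rose by 1.61 ± 0.15 (SE). Of 15 genes on the p53 target and growth-arrest list, which also holds Myc, 4 rose. Of 15 BCL2 family genes 1 rose, and of 16 oxidative stress genes 3, with no decreases in these 3 lists. Over all 770 genes 19.5% rose, so these counts are not read as a change of the lists. Of 10 genes on the prostaglandin and leukotriene list 3 rose and 3 fell (median -0.02), with 3 and 1 under housekeeping scaling. The list also holds the cholesterol-metabolizing enzymes Ch25h, Cyp27a1 and Cyp7b1, and Ch25h was among its increases. Ptgs2, cyclooxygenase 2, rose from 139, 181, 163 and 196 to between 247 and 382 (0.79 ± 0.16, SE), while Hpgds, the hematopoietic prostaglandin D synthase of microglia, fell by 0.86 on the log2 scale. Autophagy (21 genes) and chromatin regulators (63 genes) gave 0 calls, since no member passed both thresholds, with medians of -0.16 and -0.18. By the adjusted p alone, 1 autophagy gene was higher and 13 lower, and 0 chromatin genes were higher and 30 lower. At an unadjusted p under 0.05 there were 14 and 34 genes. Over all 770 genes, 431 had an adjusted and 464 an unadjusted p under 0.05. DNA repair and replication gave 2 of 44. Of 18 lysosomal genes only Ctss, a protease of antigen processing, passed, but the count depended on the scaling, with 6 increases under housekeeping, 5 under positive control and 4 under TMM scaling. Without Dox+LPS replicate 1 there were 3 lysosomal increases. The medians of autophagy and chromatin genes lay near that of the 13 housekeeping genes, -0.18, of which 0 passed, with 9 at an unadjusted p under 0.05. By the adjusted p alone, 1 housekeeping gene was higher and 8 lower. DESeq2, the likelihood ratio test of edgeR and limma-voom also gave 0 calls for autophagy and chromatin genes, and for housekeeping genes DESeq2 gave 1.

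Several called genes lay on no list and were picked out after their values were seen. Maff, a small Maf factor, rose by 2.01 ± 0.28 (SE), Msn, a cytoskeletal linker, by 1.21 ± 0.12, Mvp, the major vault protein, by 1.15 ± 0.18, and Pros1, protein S, an anticoagulant and ligand of the receptor Mertk, by 0.90 ± 0.10. Mfge8, which bridges dying cells to phagocytes, fell from 592, 657, 657 and 583 to between 304 and 406 (-0.84 ± 0.08, SE). Pros1 and Mfge8, both bridging molecules, thus moved in opposite directions.

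Blood cell markers were near the floor of the assay. Of T cell markers, Cd3d, Cd3e, Cd3g and Cd8a were under background in all 10 mice, of B cell markers Blk and Ms4a1, of NK cell markers Ncr1, Klrd1, Prf1 and Gzma, and of monocyte markers Ccr2, so no rise of these cells was detectable at this depth. Of the broader T, B and NK lists, 2 of 11, 2 of 8 and 1 of 11 passed. Of the T cell list Cd6 had a log2 fold change of -0.83, while Cd69 passed upward with every Dox mouse under background. Of the NK list Cd244, a receptor of NK cells and some myeloid cells, was at least 1.16-fold higher. Of neutrophil markers, Csf3r had a log2 fold change of 0.09 and Fpr1 was at least 1.48-fold higher, and the neutrophil list without Lcn2 summed to 84.2 to 105 normalized counts in Dox and 175 to 249 in Dox+LPS mice. For Fpr1, Dox+LPS replicate 1 stood above its group at 65.5. The 3 measured perivascular macrophage markers (Cd163, Siglec1 and Ms4a4a) summed to 45.8 to 62.1 and 170 to 221. The part of such cells in the scavenger receptor, chemokine and Lcn2 results was not tested.

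Within the Dox+LPS group, replicate 1 was neither uniformly higher nor lower. It was the highest of the 6 for 59 and the lowest for 38 of the 150 upregulated genes. Of the 577 genes above background in all 10 mice it was the highest for 184 (31.9%) and the lowest for 169 (29.3%). Among these it was the highest for 9 of 14 p53 target and growth-arrest genes and 7 of 9 interferon genes. It was the lowest for 11 of 16 endothelial genes, 11 of 17 homeostatic microglia genes and 4 of 5 complement components. Its Il1rn, Cxcl10 (355 against 98.5 to 197) and Cdkn1a (2754 against 918 to 1567) stood above every other mouse, while its Olfml3 (58.2 against 106 to 212) and Tyrobp (378 against 518 to 555) stood below. The 4 markers of microglia summed to 1311 in this mouse, the lowest of the 6, and to at most 2476 in the others, and those of endothelium to 1314 and at most 2060. Its total count, 686031, lay within the range of its group, its 644 genes above background were the fewest of the 6 and its background, 27.5 normalized counts, the highest. The part of these in its values was not tested. Without it, Icam2, an adhesion molecule whose call was lost without Dox+LPS replicate 6 (0.41) or Dox replicate 2 (0.48), Cldn5, Pecam1 and Lsr no longer overlapped with Dox mice.

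**Figure D4:**
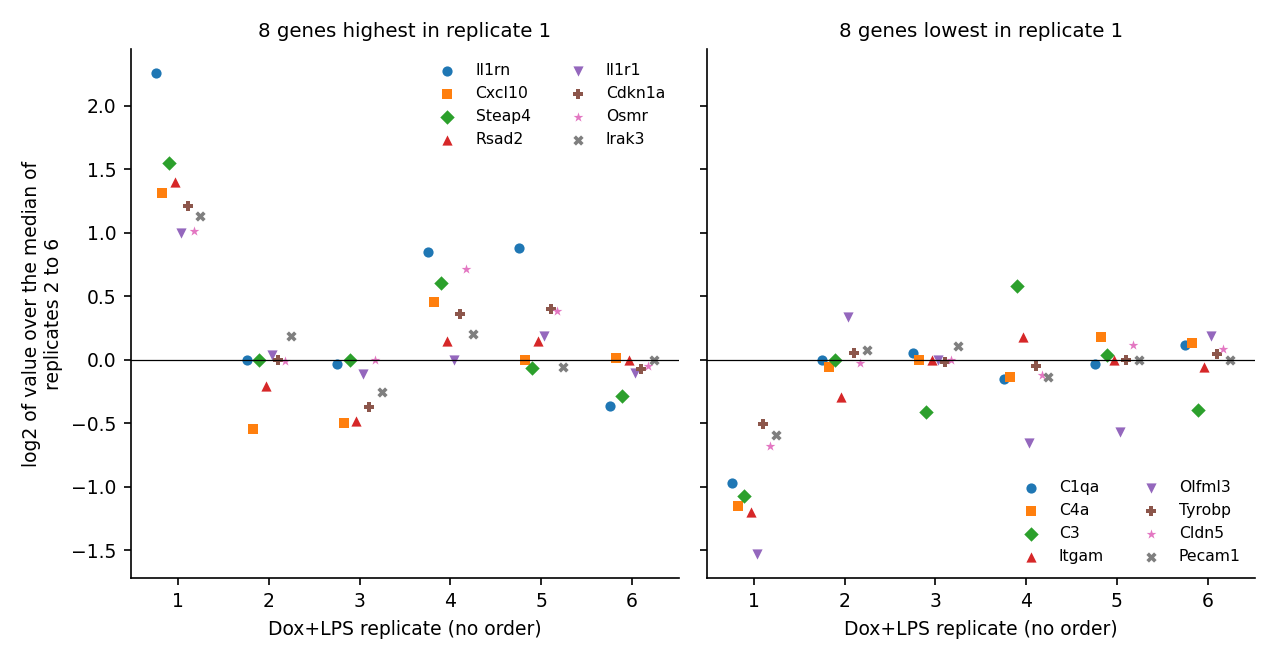
Log2 of the normalized count in each Dox+LPS mouse over the median of replicates 2 to 6, for 8 genes highest (left) and 8 lowest (right) in replicate 1, chosen for this after their values were seen. Replicate 1 is the highest point for all 8 genes on the left (Il1rn at 118 normalized counts) and the lowest for all 8 on the right (Olfml3 at 58.2), and the replicates have no order.

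Male and female Dox+LPS mice were compared by fitting each combination of treatment group and sex, an alternative added after the values had been seen. It called 15 genes (1.95%), Kdm5d and Uty of the Y chromosome among them, and 3 (0.39%) without replicate 1, which is a male, namely Kdm5d, Uty and Erbb3, a neuregulin receptor. Mmp12 and Il1rn were called only with that mouse. Ccl5 and Lcn2 were not called, though in both every male lay above every female. For Lcn2 the males had 14610 to 17611 normalized counts and the females 9968 to 11573. Both genes were picked after their values were seen. Because the Dox group held 1 male, whether LPS acted differently in males and females of this group was not tested.

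The response was then set beside that of mice never given dox. These comparisons share no mice, but all LPS mice lay on the cartridge of the Dox+LPS mice and all Untreated mice on that of the Dox mice, so both carry the same cartridge difference and are not independent in that respect. Of the 204 genes, 123 up and 36 down also passed in LPS against Untreated mice, and 201 of 204 had the same sign (98.5%), against 650 of all 770 genes (84.4%). The 3 exceptions were Cd69, Exo1 and Ngfr. Tested as an interaction, the difference between both LPS responses passed for 0 of 770 genes (0%) at an adjusted p under 0.05, with 69 at an unadjusted p under 0.05, and for 0 with DESeq2 (53 unadjusted), the likelihood ratio test and limma-voom. It was 1, Tpd52, without Untreated replicate 4. The smallest adjusted p was 0.149, shared by 6 genes. Casp4 had a log2 fold change of 3.12 with prior dox and 1.71 without, a difference of 1.41 ± 0.33 (SE), though its Dox mice were under background and its fitted values depend on the prior count. Cxcl9 had 2.34 and 1.01 (difference 1.33 ± 0.36, with the same limit), and Hspb1 1.49 and 0.52 (difference 0.96 ± 0.27, adjusted p = 0.157). For Lcn2 the values were 9.18 and 6.31, a difference of 2.86 ± 1.17 (SE, adjusted p = 0.509). The Lcn2 count was 733 in Untreated replicate 3 against 13.6 to 128 in the other 7 Untreated mice, and 5449 in LPS replicate 3 against 10667 to 11938 in the other 4, and without these 2 mice the difference was 1.01 ± 0.60 (SE). A difference of these sizes could not be told from 0, which does not show that the responses are equal.

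**Figure D5:**
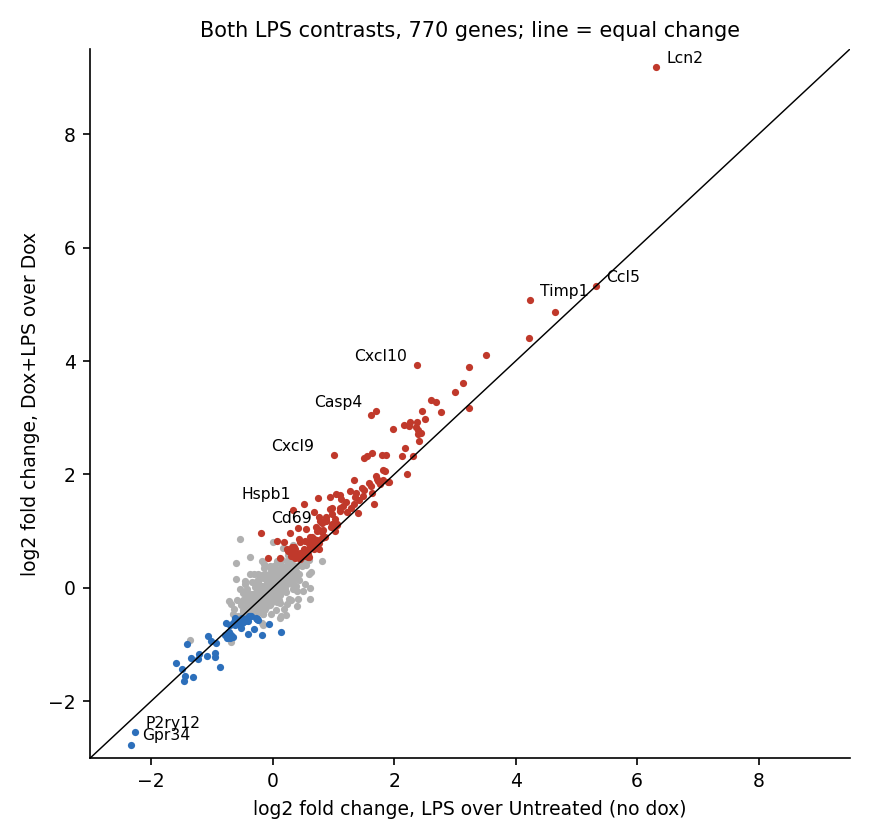
Log2 fold change of each of the 770 genes in mice with prior dox (vertical) against mice without (horizontal), colored by the call in mice with prior dox (red up, blue down, grey not called), with a line of equal change. Most called genes lie near the line, and Casp4, Cxcl9, Cxcl10 and Hspb1 lie above it without passing the test of the difference.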

How the data were processed

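The authors deposited raw counts, whole numbers of nCounter probe molecules per gene and mouse, not normalized. They are not estimated counts, since every probe value as deposited was whole and needed no rounding. 1 column that belonged to no mouse was not used. The control probes served for background and were not tested. Cortical RNA was hybridized to the panel on 2 cartridges, as named in the column headers of the deposited table. A table that the authors normalized by the upper quartile and by removal of unwanted variation (RUVg) was not used, and RUVg, computed here from its published description, was tried as an alternative.

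edgeR 4.0.16 in R 4.3.3 (with limma 3.58.1) fitted all 23 mice with a mean per group, upper-quartile scaling and the quasi-likelihood test. Dox+LPS was compared with Dox, and the interaction with LPS minus Untreated. A gene changed at an adjusted p under 0.05 and, outside the interaction, an absolute log2 fold change above 0.5. Genes were drawn from the 15 largest changes each way, among genes above background in every mouse of the higher group, and, per list, from up to 8 that passed, any against its list's direction and up to 2 that did not pass. Birc3, Fos, Vim, Fcgr2b, Irf8, Ltbr, Cnp, Mog, Fa2h, Csf1r, Cx3cr1, Tmem119, Tpd52 and Erbb3, the listed blood cell markers and genes on no list lie outside this rule and were chosen after their values were seen. Members and lists were chosen with earlier results of these data known. Other scalings, filters, thresholds, tools (DESeq2 1.42.0, limma-voom), sex and leaving out each mouse were tried as alternatives. Some genes are not reported here. Replicates are separate mice. Each SE is the uncertainty of a log2 fold change, taken as its size over the square root of the F statistic. It draws on the fit to all 23 mice and is not the spread of the groups compared.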

Additional observations from a re-analysis of the deposited data

Results flagged for a closer look

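In 334 groups of values tested, 167 named genes in each of the 2 treatment groups, 26 held a mouse whose gap to its nearest group mate was large against the range of the group by Dixon's criterion, for which chance gives about 1 in 20 groups. Dox+LPS replicate 1 was that mouse in 18 of the 26. It stood below its group for the microglial and complement genes C1qa (978 normalized counts), C1qb (1623), C4a (404), Csf1r (549), Cx3cr1 (401), Tyrobp (378) and Sall1 (233), for the macrophage receptor Cd163 (13.5) and the lysosomal reductase Ifi30 (118), and for the endothelial genes Cldn5 (796) and Ly6a (2176). It stood above its group for Il1r1 (342), Il1rn (118) and Irak3 (152) of interleukin 1 and Toll-like receptor signalling, Rsad2 (275) of the interferon group, Steap4 (369), Cdkn1a (2754) and Fpr1 (65.5).

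The other 8 were scattered over mice. Among Dox+LPS mice, Cd69 was highest in replicate 5 (21.8), Mef2c highest in replicate 4 (11014), Tlr4 lowest in replicate 4 (32.8) and Ppp3r2 lowest in replicate 2 (7.10). Among Dox mice, replicate 3 was highest for Fa2h (339) and Slc2a5 (116), replicate 2 was highest for Maff (25.6) and replicate 4 was lowest for Tnf (6.40).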

How the results depend on the processing

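The 204 changed genes (150 up, 54 down) became 431 when the adjusted p alone was required and 111 when the absolute log2 fold change had to exceed 1. Housekeeping scaling gave 206 (180 up, 26 down), positive control scaling 197 (164 and 33), TMM 202 (162 and 40), DESeq2 196 (158 and 38) and leaving out each mouse 190 to 207. The interaction gave 0 to 1 genes when each mouse was left out, the 1 being Tpd52 without Untreated replicate 4, 0 in DESeq2 with 53 at an unadjusted p under 0.05, and 0 without both LPS replicate 3 and Untreated replicate 3 (43 unadjusted). Of 167 named genes, 15 lost the call with housekeeping scaling, and 2, neither of them called, reversed direction. Csf1r turned to 0.0787 with housekeeping scaling, 0.0086 with positive control scaling and 0.0041 in females only, and Cx3cr1 to 0.0309 in females only. Values near background, as for the blood cell genes, limit what can be detected. No paired analysis applied, because each mouse belonged to 1 treatment group, and the replicate numbers only name the mice.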
